A study of Mus musculus with 6 samples.

Results

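The miR-183, miR-96 and miR-182 cluster was measured in mouse lung with 3 mouse probe sets, 1 for each miRNA, out of 609 mouse probe sets and 7625 probe sets in all. The members were chosen by name, as the mouse probe sets mmu-miR-183_st, mmu-miR-96_st and mmu-miR-182_st, without star strands. Of the 3, miR-182 was read above background on all 6 arrays, miR-183 on 2 and miR-96 on none. Another 25 probe sets on the arrays carry the same names in other mammals, 5 for miR-182, 11 for miR-183 and 9 for miR-96, and served as support.

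RNA came from the upper left lung lobe of 6 mice, with 1 array per mouse. The 2 TG mice were CC10-rtTA-IL13 transgenic, in which the CC10 promoter of airway club cells drives a doxycycline-dependent transactivator (rtTA) and, through it, interleukin 13, a cytokine of type 2 airway inflammation. The 4 WT mice were wildtype. All 6 mice were C57BL/6, aged 6 to 10 weeks, and all drank doxycycline at 2 mg/mL for 7 days, so the drug did not differ between groups. No group carried rtTA without interleukin 13, so these cannot be told apart. The samples were labelled biological replicates, and with so few arrays every value is imprecise.

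The members of this cluster are processed from neighbouring hairpins of a single long transcript. They are best known from sensory organs, where a mutation in the miR-96 seed causes hearing loss in mice and people, and are also made in epithelia. miR-182 is also known from activated helper T cells, in which interleukin 2 signalling induces it and it represses the transcription factor Foxo1. A miRNA finds its targets mainly through its seed, bases 2 to 8 counted from the 5′ end, so the sequences below show how closely related the 3 members are.

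The mature strands as RefSeq gives them for GRCm38.p6 are shown 5′ to 3′ with the seed in capitals. The probe sets carry older names without an arm and were read as the 5p strands. Among mouse and human probe sets, star names, which denote the other strand, were present for mouse and human miR-183 and for human miR-182 and miR-96.
miR-183-5p: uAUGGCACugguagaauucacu
miR-96-5p: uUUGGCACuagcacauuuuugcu
miR-182-5p: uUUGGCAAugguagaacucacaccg

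All 3 share UGGCA at bases 3 to 7, which 5 of 1679 mature mouse miRNAs in the RefSeq table carry there (0.298%). No pair of members shared all 7 seed bases. With positions counted from 1 at the 5′ end, miR-96 and miR-182 differed in the seed by C8A alone, and miR-183 and miR-96 by A2U alone. miR-183 and miR-182 differed by both A2U and C8A in the seed, yet were the closest pair over the whole strand, with 18 of 22 bases identical. Outside the seed they differed by U17C and U22A. miR-183 and miR-96 had 13 of 22 bases in common and miR-96 and miR-182 12 of 23. The probe sequences were not used here, so whether the probe sets for miR-182 and miR-183 separate these related strands was not tested.

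The hairpins are shown with the mature 5p strand in capitals, as the probe sets were read as this strand. Whether the probes also bind the precursor was not tested. They lie on the minus strand of mouse chromosome 6, inside the annotated span of the long non-coding RNA gene Mirc35hg. In GRCm38.p6 Mir183 is at chr6:30169668-30169737, Mir96 at chr6:30169446-30169551 and Mir182 at chr6:30165918-30165992. The hairpins of miR-183 and miR-96 are 116 bases apart and those of miR-96 and miR-182 3453 bases apart, and the whole cluster spans 3820 bases.
Mir183: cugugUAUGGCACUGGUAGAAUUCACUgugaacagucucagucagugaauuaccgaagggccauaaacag
Mir96: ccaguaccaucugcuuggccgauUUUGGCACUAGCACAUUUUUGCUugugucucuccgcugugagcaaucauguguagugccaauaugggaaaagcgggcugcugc
Mir182: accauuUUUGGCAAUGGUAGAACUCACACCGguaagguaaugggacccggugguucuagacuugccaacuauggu

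Detection on an array meant a deposited log2 value over that of 95% of the 1631 plant probe sets there, and testing required detection on 2 or more arrays. The detection limits lay between 4.22 and 4.33. Of the 609 mouse probe sets 197 were tested, among them miR-182 and miR-183 but not miR-96. The arrays stood apart in how much they read above background: in TG 201 and 199 mouse probe sets were detected, against 149, 172, 146 and 132 in WT replicates 1 to 4. Over the 197 tested probe sets the median difference (TG minus WT) was 0.21 on the log2 scale, with 130 differences above 0. Lung markers were present: all 8 epithelial miRNAs of the marker list were detected on some array, and miR-126-3p of endothelium on all 6. Of 6 markers of brain, liver and pancreas 5 were undetected on every array, and miR-122 of liver was detected on 1 TG and 1 WT array.

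miR-182 was the one member clearly measured, and its values were higher on both TG arrays than on any WT array, without passing the test. Its log2 values were 6.26 and 5.89 in TG replicates 1 and 2. In WT they were 5.63, 5.60, 5.61 and 5.17 for replicates 1 to 4. The groups did not overlap, the lowest TG array standing 0.26 above the highest WT array, and 3 of the 4 WT arrays lay within 0.04 of each other with replicate 4 below them. Such separation was common on these arrays: 29.4% of the tested mouse probe sets had both TG values over every WT value.

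The mean of miR-182 was 6.08 ± 0.26 for TG (SD, n = 2) against 5.50 ± 0.22 for WT (SD, n = 4). The difference was 0.57 ± 0.25 (SE), or 1.49-fold, with a 95% confidence interval of -0.0026 to 1.15. limma over all 197 tested probe sets gave an adjusted p of 0.249 for miR-182 (unadjusted 0.0508), so it did not pass the threshold of 0.05. In this comparison 3.05% of the tested probe sets passed with TG higher and none with TG lower, and 39 (19.8%) had an unadjusted p under 0.05 in limma. Exact two-sided permutation gave p = 0.0667 for miR-182, which is the smallest value that 15 splits of 6 arrays allow. Leaving out TG replicate 1 brought the difference to 0.39 and leaving out TG replicate 2 to 0.76.

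**Figure D1:**
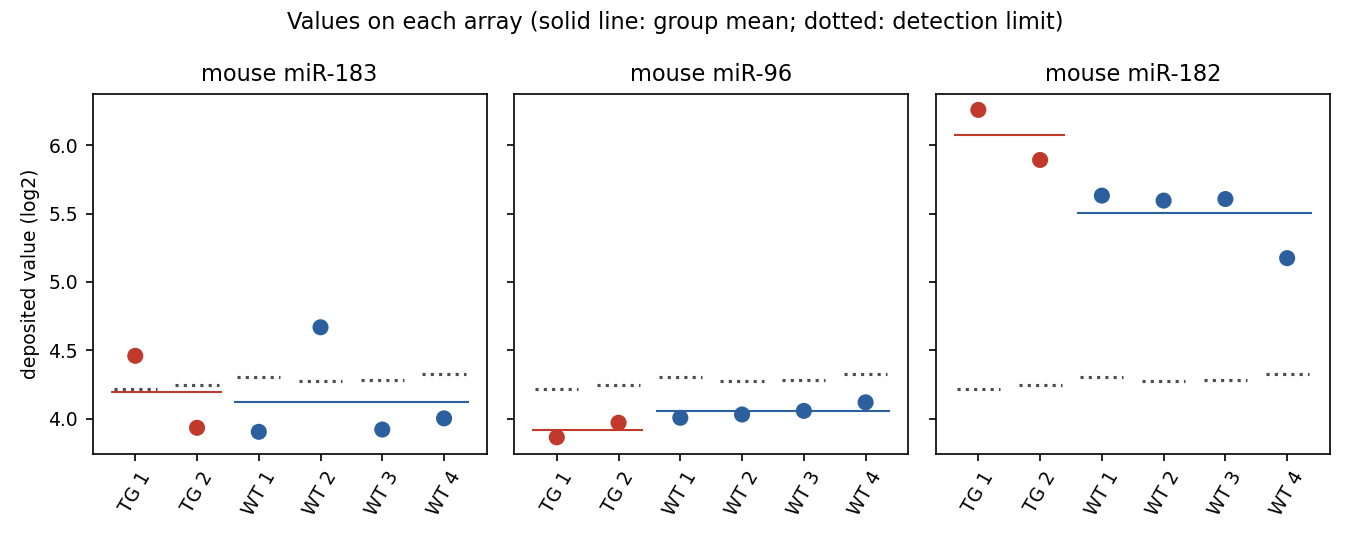
Deposited log2 values of the mouse probe sets of miR-183, miR-96 and miR-182 (vertical axis) on each of the 6 arrays (horizontal axis, TG red, WT blue), with the group mean as a solid line and each array's detection limit dotted. miR-182 lies above its limit on all 6 arrays and higher in TG, miR-183 exceeds the limit on TG replicate 1 and WT replicate 2 alone, and miR-96 stays under it throughout.

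The difference of miR-182 moved with the scaling of the arrays. It ranked 55 among the 197 tested probe sets, 54 having a larger difference. With the tested median subtracted on each array, which shifts every difference down by 0.44, miR-182 differed by 0.14 ± 0.29 (SE) with a limma adjusted p of 0.772. The median over all tested probe sets was then -0.23, so miR-182 lay 0.36 above that median under either scaling. Quantile normalization gave 0.41 ± 0.26 (SE). In bulk lung, more cells that make a miRNA and more of it per cell cannot be told apart.

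**Figure D2:**
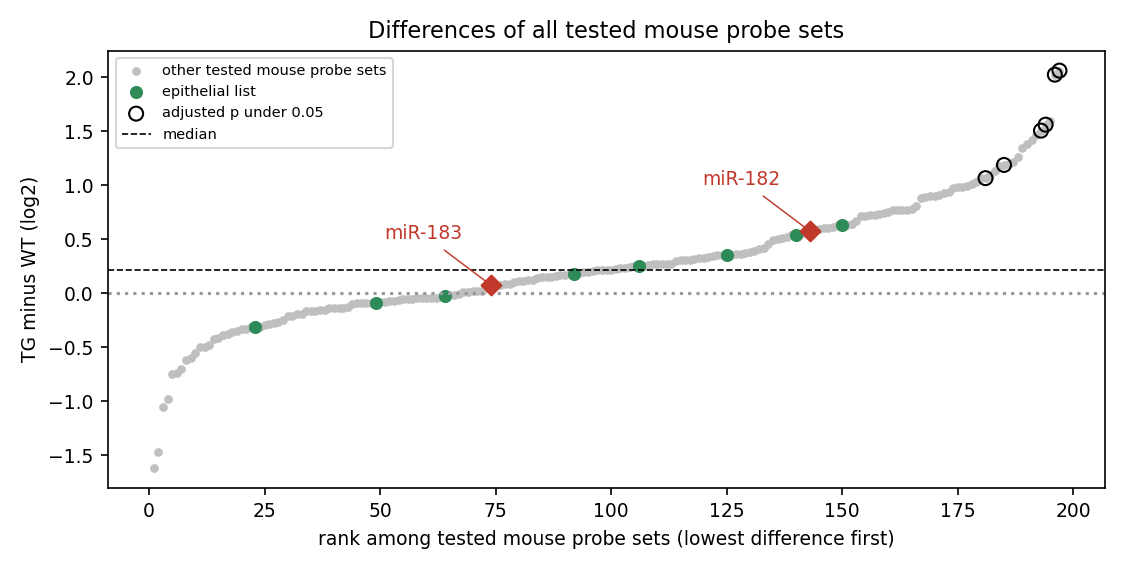
TG minus WT difference (log2, vertical axis) of the 197 tested mouse probe sets by rank (horizontal axis), with miR-182 and miR-183 as red diamonds, the epithelial list in green, the 6 probe sets past the threshold circled and the median of 0.21 dashed. miR-182 sits above the median at 0.57 and miR-183 below it at 0.07, both inside the dense middle of the distribution.

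Probe sets of the same name in other mammals were detected for miR-182 on nearly every array, in 29 of 30 readings. Their differences were 0.65 for the rhesus macaque probe set, 0.61 for rat, 0.60 for human, 0.07 for opossum and -0.11 for orangutan. The rat probe set read 6.42 and 6.03 for the TG mice, then 4.65, 6.11, 5.87 and 5.82 over WT replicates 1 to 4. There WT replicate 2 lay above TG replicate 2, and WT replicate 1 stood far below the rest, unlike its value of 5.63 on the mouse probe set. The human probe set read 5.66 and 5.57 in TG and 4.48, 5.67, 5.31 and 4.63 in WT, so WT replicate 2 lay above both TG arrays.

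Only the rhesus macaque probe set of these 5 separated the groups as the mouse one did, with 5.69 and 4.94 in TG and 4.57, 4.65, 4.72 and 4.74 in WT. The mean of the mouse probe set and these 5 on each array was 5.66 and 5.29 in TG and 4.88, 5.36, 5.16 and 4.90 in WT. With this averaging the groups overlapped, WT replicate 2 being above TG replicate 2. The difference was 0.40, with an exact two-sided permutation p of 0.200 and a limma adjusted p of 0.275. These probe sets read RNA of the same 6 mice and so are no further replicates, and which of them bind the mouse strand is not known from the files.

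**Figure D3:**
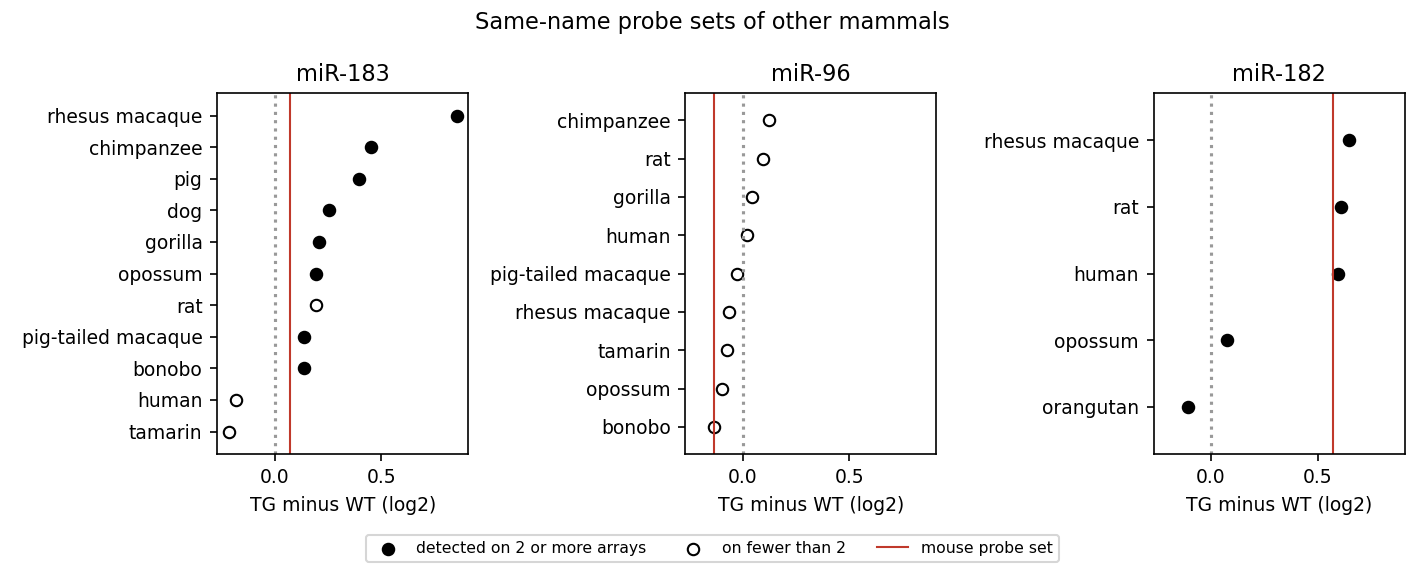
TG minus WT difference (log2, horizontal axis) of each same-name probe set of another mammal (vertical axis) for the 3 members, filled where detected on 2 or more arrays, with the mouse probe set's difference as a red line. For miR-182 they run from -0.11 to 0.65, for miR-183 from -0.22 to 0.85, and for miR-96 all 9 lie within 0.14 of 0.

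miR-183 lay at the edge of detection and showed no settled direction. Its mouse probe set read 4.46 and 3.93 in the TG lungs. In the WT lungs it read 3.90, 4.67, 3.92 and 4.002, in the order of the replicates. It was above the limit on TG replicate 1 and WT replicate 2, and in background on the other 4 arrays, so the groups overlapped. Without either of these 2 arrays it failed the detection filter and had no test. Group means were 4.20 ± 0.37 for TG (SD, n = 2) and 4.12 ± 0.37 for WT (SD, n = 4). The measured difference was 0.07 ± 0.31 (SE), with a 95% confidence interval of -0.64 to 0.78. limma gave an adjusted p of 0.908, and exact two-sided permutation gave p = 0.867. With every value under the limit set to the limit of its array the difference turned to -0.04 ± 0.16 (SE). With centring on the tested median it turned to -0.36 ± 0.28. Leaving out WT replicate 1 gave -0.00058, and using only WT replicates 2 and 3 gave -0.10.

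Of the 11 other mammals' probe sets for miR-183, 8 were detected on 2 or more arrays, and 25 of all 66 readings exceeded the limit. By array the number detected was 8 and 4 of 11 in TG, and in WT 3, 6, 4 and 0 in replicate order. WT replicate 4, which had the fewest mouse probe sets above background, thus read none of them, and TG replicate 1, which had the most, read the highest number; the part of overall detection in this was not tested. Their differences were above 0 for 9 and below 0 for 2, with a median of 0.20. Over all tested mouse probe sets the median was 0.21, and over all 609 without the detection filter 0.0076. As not all of the 11 would pass that filter, neither median is a like-for-like reference.

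Among these, the rhesus macaque probe set for miR-183 read 4.92 and 4.78 in TG and 4.14, 4.12, 4.01 and 3.73 in WT. It was not above the limit on any WT array, so against the WT detection limits it was at least 1.47-fold higher in TG. It counted as detected through its 2 TG arrays alone, so a difference above 0 was favoured from the start. Its difference of 0.85 was also the largest of the 11, which began at -0.22. Whether this probe set binds the mouse strand was not tested. The chimpanzee probe set read 4.79 and 4.46 in TG and 4.24, 4.08, 4.35 and 4.02 in WT, with WT replicate 3 above its limit. Both separated the groups, as the rat probe set did at lower values, and the other 8 did not. The rat probe set was above the limit on TG replicate 1 alone. Among the tested mouse probe sets 29.4% separated the groups in this direction, so such separation was common. Averaged with the mouse probe set, miR-183 differed by 0.21 with an exact two-sided permutation p of 0.333.

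miR-96 was in background in every lung. Its mouse probe set read 3.86 and 3.97 in TG and 4.01, 4.03, 4.06 and 4.12 in WT, each 0.21 to 0.35 below the limit of its array. Both TG values were below every WT value, but values under the limit give only an upper bound on each array and no fold. Of the tested probe sets 6.60% had this order, but miR-96 was not among them. The share among undetected probe sets was not computed. In a limma fit without the detection filter, over all 609 mouse probe sets, its adjusted p was 0.728. Of the 9 other mammals' probe sets 8 were undetected on all arrays, and 1 of 54 readings exceeded the limit, the tamarin probe set on WT replicate 3 at 4.35. A level of miR-96 below these limits was thus not detectable with these arrays in either group.

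Because the members share a precursor, the change of miR-182 was also set against that of miR-183 within each array, where a shift common to the whole array cancels. The value of miR-182 minus miR-183 was 1.80 and 1.96 in TG. In WT it was 1.73, 0.93, 1.69 and 1.17, again in replicate order. Both TG arrays were the highest, though WT replicate 1 lay only 0.07 below TG replicate 1. Its mean was 1.88 ± 0.11 for TG (SD, n = 2) and 1.38 ± 0.39 for WT (SD, n = 4), a difference of 0.50. Exact two-sided permutation gave p = 0.133, and with 15 splits no p of this test can fall under 0.0667. As miR-183 was in background on 4 arrays, this value mostly sets miR-182 against the array's background. It was 0.19 with same-name probe sets averaged.

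Over the 6 arrays miR-182 and miR-183 did not move together, with Pearson's r of 0.32 and Spearman's rho of -0.14. This is a description of 6 arrays, 4 of which read miR-183 only in background.

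The tested miRNAs whose values followed miR-182 most closely were miR-339-5p, miR-130b and miR-200c, with Pearson's r of 0.95, 0.94 and 0.93 over the 6 arrays among 171 candidates. After each array was centred on its tested median the values of r were 0.86, 0.81 and 0.87. miR-200c, which represses the Zeb factors and so helps keep epithelial cells epithelial, read 10.06 and 9.92 in TG and 9.72, 9.52, 9.37 and 9.19 in WT. As for miR-182, both TG arrays were highest and WT replicate 4 lowest. miR-200c differed by 0.54 ± 0.24 (SE), with a limma adjusted p of 0.249. The differences of miR-339-5p and miR-130b were 0.42 and 0.36, and neither passed. miR-339-5p was above the limit on 5 arrays and miR-130b on 4. WT replicate 4 was in background for both, and WT replicate 3 also for miR-130b, so their r rests partly on background values.

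Those most like miR-183 were miR-375, known from neuroendocrine and secretory epithelial cells, miR-106a, a relative of miR-17, and miR-345-5p, with r of 0.96, 0.94 and 0.88. miR-375 read 5.05 and 4.56 in TG and 4.13, 5.25, 4.35 and 4.48 in WT. Its highest arrays were WT replicate 2 and TG replicate 1, the same 2 that read miR-183 above background. None of the 3 passed the test. After centring, r was 0.86, 0.93 and 0.73. As miR-183 was in background on all other arrays, these values of r rest mainly on those 2. They were also the highest among 171 candidates.

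**Figure D4:**
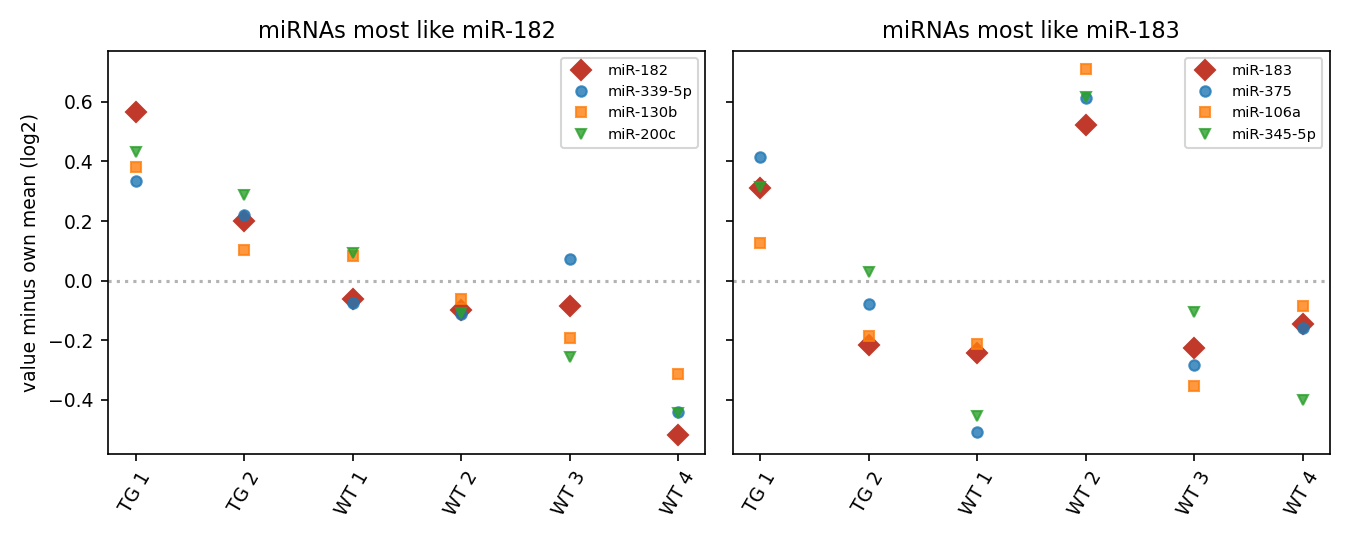
Log2 value minus the miRNA's own mean over the 6 arrays (vertical axis) on each array (horizontal axis), for miR-182 with the 3 tested miRNAs most like it and for miR-183 with its own 3. The miR-182 panel is highest on TG replicate 1 and lowest on WT replicate 4, while the miR-183 panel peaks on WT replicate 2.

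Of the 8 epithelial miRNAs tested, 5 had differences above 0 and 3 below, none passed the test (3.05% of all tested probe sets did), and the median was 0.22 against 0.21 over all tested. The mouse probe set of miR-205, a basal cell miRNA, was undetected on all 4 WT arrays and at least 1.24-fold higher in TG against the WT detection limits (limma adjusted p = 0.160). It passed the detection filter through its 2 TG arrays alone, so a difference above 0 was favoured from the start. It is 1 of the 5 above 0. miR-141, a partner of miR-200c, was at 0.35 ± 0.28 (SE), miR-375 at 0.25 ± 0.35 and miR-429 at 0.18 ± 0.36. miR-200b was at -0.03 ± 0.24, miR-200a at -0.09 ± 0.39 and miR-203, a miRNA of differentiating epithelium, at -0.31 ± 0.25. The log2 of the list's summed signal was 10.21 to 10.31 in TG and 9.65 to 10.00 in WT, without overlap. Of single tested mouse probe sets 29.4% had both TG values over every WT value. The sum was not centred on the tested median, so a shift common to an array is still in it. The miR-200c probe set made up 72.7% to 84.2% of that summed signal over the 6 arrays.

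Because miR-182 is also made by activated T cells, the leukocyte list is given beside it. Of 6 markers 4 were tested and 2 undetected on all arrays, miR-142-3p and miR-142-5p, both defining for blood cells. The log2 of the summed signal was 8.68 to 8.87 in TG and 7.92 to 8.44 in WT, without overlap. Of single tested mouse probe sets 29.4% separated the groups in this direction. Without miR-342-3p the sum was 7.42 and 7.57 in TG and 7.27, 7.55, 7.19 and 7.23 in WT, and the groups overlapped. Among the 4 tested, miR-342-3p differed by 1.14 ± 0.29 (SE), miR-155 by 0.71 ± 0.29, miR-150 by 0.22 ± 0.24 and miR-223 by -0.27 ± 0.25, and none passed in limma. Their median was 0.46, against 0.21 over all tested. The part of leukocytes or of epithelial cells in the values of miR-182 was not tested.

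**Figure D5:**
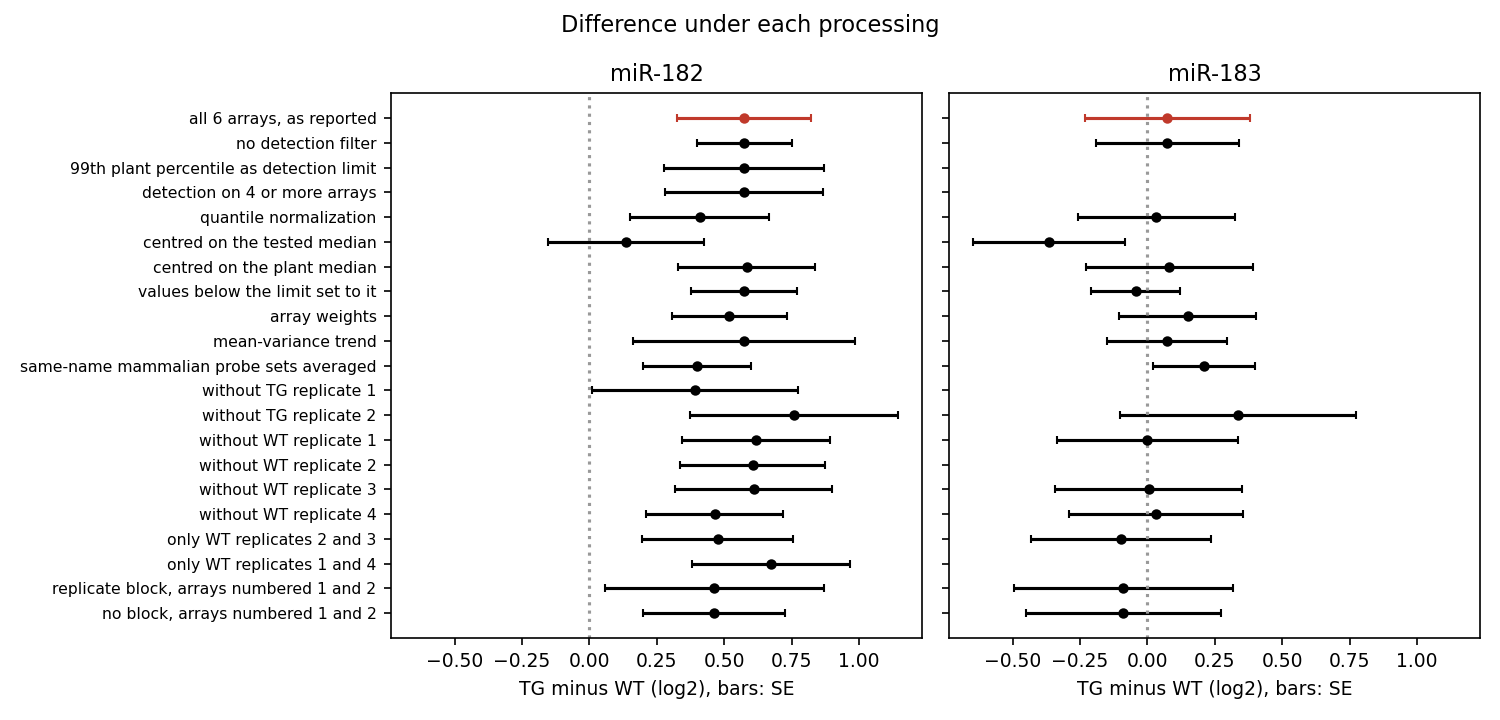
TG minus WT difference (log2, horizontal axis, bars are SE) of miR-182 and miR-183 under each processing (vertical axis), with the reported setting in red; a missing point means the probe set did not pass the detection filter there. miR-182 stays above 0 throughout, from 0.14 to 0.76, and miR-183 falls on both sides of 0.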

How the data were processed

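TRIzol served for RNA extraction, and an Affymetrix procedure for biotin labelling, per the labels' protocols. The deposited values were taken as log2, a base inferred from their range (a dense floor near the array medians of 4.02 to 4.03 and highest values of 11.42 to 13.36); all folds rest on it. How the authors corrected, summarised and normalised the signals, and the miRBase version, is not given in the sources used. No batch was given, and 0 columns were left unused. TG and WT were compared over the 197 tested mouse probe sets with limma 3.58.1 in R 4.3.3 (lmFit, eBayes), two-sided, with Benjamini-Hochberg adjustment and a threshold of 0.05, and single values by exact permutation over 15 splits. The code was tested on simulated data. Members, lists and tests were chosen with earlier results of these data known. Named miRNAs were the members, the 3 tested miRNAs with the highest r to each tested member, the tested epithelial list, and relatives by seed or star strand; other lists were summarised, with tissue markers named. Alternatives covered detection, scaling, weights, averaging, left-out arrays and a replicate block. Sequences and places come from RefSeq, GRCm38.p6, in which all 3 members were matched; the deposited table names no build.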

Additional observations from a re-analysis of the deposited data

Results flagged for a closer look

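For 40 named probe sets the 4 WT arrays were examined for a value far from the others, which chance gives in about 1 of 20 groups, and 3 had one. For mouse miR-183, WT replicate 2 at 4.67 stood above the other WT arrays at 3.90 to 4.002, and it is the WT array that detected the miRNA. For mouse miR-182, WT replicate 4 at 5.17 lay below the others at 5.60 to 5.63. Without that array the difference was 0.46 with a limma adjusted p of 0.361. The tamarin probe set for miR-96 read 4.35 on WT replicate 3 and 3.79 to 3.87 on the other WT arrays.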

How the results depend on the processing

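miR-182 kept a positive difference that did not pass in all 20 alternatives, from 0.14 to 0.76 with limma adjusted p from 0.128 to 0.880; leaving out single arrays gave 0.39 to 0.76. miR-182 minus miR-183 within arrays stayed positive in its 11 alternatives, at 0.19 to 0.62. miR-183 ran from -0.00058 to 0.34 without single arrays and fell below 0 with tested-median centring (-0.36), with values under the limit set to it (-0.043) and with only WT replicates 2 and 3 (-0.098). On arrays numbered 1 and 2 it was -0.090, with the replicate block and without it. It had no test at the 99th plant percentile, with detection on 4 arrays, without TG replicate 1, without WT replicate 2 or with only WT replicates 1 and 4, as it then failed the filter; the cause of its other changes was not tested. miR-96, under the limit throughout, was -0.14 as measured, -0.57 with tested-median centring, -0.025 with averaging, -0.19 to -0.083 without single arrays, and -0.066 (adjusted p = 0.0463) with values set to the limit, where by construction it is the difference of the detection limits.

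The 6 calls over all tested probe sets became 1 without the detection filter, 2 at the 99th percentile, 1 with detection on 4 arrays, 0 with quantile normalization, 2 with tested-median centring, 33 with array weights, 14 with averaging and 31 with only WT replicates 1 and 4. Without single arrays they ran from 0 to 27, with 27 when WT replicate 2 was left out and 0 without either TG array or without WT replicate 1 or 3. Under quantile normalization 33 probe sets had an unadjusted p under 0.05 in limma. The replicate block gave 12 calls and the same arrays without it 0. Same-numbered arrays deviated from their group means with r of -0.21 and 0.07. With 2 TG arrays their deviations mirror each other, so these values of r cannot decide whether the arrays were paired. The labels call the arrays biological replicates only, and the numbers were not taken as pairs. Neither miR-182 nor miR-183 passed with the block. The number of arrays, and for miR-183 and miR-96 a signal at background, limit what can be seen.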

Other observations

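One further mouse miRNA in the RefSeq table carries the seed of miR-96, and it was picked out after its values were seen. It is miR-1271-5p, from the plus strand of chromosome 13 at chr13:54578139-54578221 in GRCm38.p6, shown with the seed in capitals.
miR-1271-5p: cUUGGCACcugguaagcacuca
It shares all 7 seed bases with miR-96 but only 10 of 22 bases over the strand. It had no mouse probe set in the table. The human probe set of that name read 4.24 and 4.07 in TG and 3.92 to 4.07 in WT, above the limit on TG replicate 1 alone, and the dog probe set was undetected on all arrays. Neither this miRNA nor miR-96 was thus clearly read in these lungs.

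The star strand of miR-183 had a mouse probe set, which read 4.23 and 4.04 in TG and 4.23, 4.17, 4.10 and 3.98 in WT. It was above the limit on TG replicate 1 alone, by 0.01.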
